A study of Mus musculus with 96 samples.

Results

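Antitrypsin is the main serine protease inhibitor of plasma, and in the mouse it is encoded by a family of closely related genes, Serpina1a to Serpina1e. The 5 genes described here were chosen by name, as the entries of the deposited count table whose symbol is one of these, and they are 5 of 56748 genes in that table. Hepatocytes secrete antitrypsin into the blood, where it traps neutrophil elastase and related proteases through an exposed loop that acts as bait. Humans carry a single SERPINA1 gene, whereas mice carry several copies, and the bait loop is the stretch in which the mouse copies are known to differ most. The protein is folded in the endoplasmic reticulum by lectin chaperones and exported with a cargo receptor before secretion.

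Liver, skeletal muscle and cerebral cortex of C57BL/6 mice were profiled by poly-A RNA-seq after ad libitum feeding (AL) or daily fasting (IF). The study describes male mice that were fasted for 16 h per day for 4 months from 6 weeks of age and killed in the morning at the end of a fast and then perfused with saline, and the AL mice had food at all times. The labels list 8 AL and 8 IF males (mice 1 to 16) and 8 AL and 8 IF females (mice 25 to 40), each mouse with a library from every tissue. The age and diet duration of the females are not given in the sources used here, and the sex of the mice and their cohort (low or high mouse numbers) cannot be told apart. AL and IF libraries with the same replicate number came from different mice.

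The 95 libraries used held between 26097314 and 49838004 counts on genes. Xist, the RNA of the inactive X chromosome, and 4 Y-linked genes matched the labelled sex in 95 of 96 libraries. The exception was the library labelled male AL cortex of mouse 1, which had 213 CPM (counts scaled to the total of the library) of Xist and 0 counts of the Y-linked genes. It was left out, so that male AL cortex has n = 7. Marker genes matched the tissue labels. The summed level of 14 hepatocyte markers, led by albumin (Alb), had medians between 81396 and 110195 CPM in the 4 liver groups, and that of 5 muscle fibre genes, led by the actin gene Acta1, of at least 129332 CPM in muscle. In cortex, 5 neuronal genes led by Snap25 summed to medians between 6093 and 6298 CPM.

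The 5 genes lie side by side on the minus strand of chromosome 12, in the interval chr12:103694415-103925234 (GRCm39), which spans 230820 bases. From the low to the high coordinate they are Serpina1b (ENSMUSG00000071178), Serpina1d (ENSMUSG00000071177), Serpina1a (ENSMUSG00000066366), Serpina1c (ENSMUSG00000079015) and Serpina1e (ENSMUSG00000072849). The table lists 12 genes within this interval, of which 7 are not antitrypsin genes. Among these 7, the pseudogene Gm8893 had a median of 55.7 CPM in male liver and 36.4 CPM in female liver, and the long noncoding RNA B430119L08Rik had between 4.90 and 51.2 CPM in male and between 5.19 and 25.8 CPM in female liver. Serpina1b, annotated over 102218 bases, encloses Serpina1d and overlaps 4 genes in all. Serpina1c overlaps B430119L08Rik, which runs on the opposite strand. Serpina1a and Serpina1e overlap no listed gene.

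**Figure D1:**
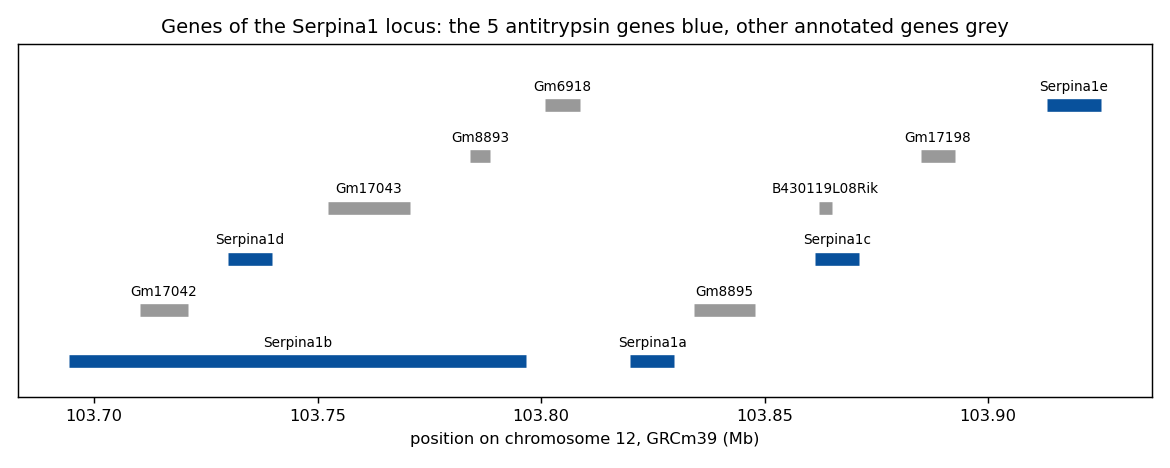
Map of the Serpina1 locus on chromosome 12 (GRCm39, position in Mb on the horizontal axis; height has no meaning). Blue bars are the annotated spans of the 5 antitrypsin genes and grey bars are the other 7 listed genes, and the span of Serpina1b encloses that of Serpina1d.

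The copies are close enough in sequence to blur the counts. In the reference annotation each has a coding sequence of 1239 bases in 4 coding exons, and these sequences align without gaps. Of the 1239 positions 86 vary among the 5 genes (6.94%), and the identity of any pair lies between 96.3% and 98.5%, highest for Serpina1a with Serpina1c. Of all 100-base stretches of the Serpina1c transcript, 40.5% have no exact copy in the transcripts of the other 4 genes, against 51.3% for Serpina1a, 77.2% for Serpina1b, 78.4% for Serpina1d and 83.2% for Serpina1e. At 150 bases the share is 48.2% for Serpina1c and 91.4% for Serpina1e. How reads that fit several copies were counted is not given in the sources used here, nor is the strand setting. The count of each gene is therefore uncertain to that extent, by sequence Serpina1c and Serpina1a most. Serpina1d also lies inside the annotated span of Serpina1b on the same strand, so the counts of these are uncertain for that reason too. The sum over the 5 genes does not depend on how reads were split among them. It does depend on whether reads that fit several copies were counted.

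The coding stretch in which the copies differ most is shown because it is where a read can best be placed on a single gene. It covers coding bases 1101 to 1160 (counted from the first base of the start codon), 60 bases of which 18 vary, and it lies on the minus strand of GRCm39 in an exon of each gene, at chr12:103820016-103820075 in Serpina1a, chr12:103694583-103694642 in Serpina1b, chr12:103861353-103861412 in Serpina1c, chr12:103730021-103730080 in Serpina1d and chr12:103913359-103913418 in Serpina1e. Capitals mark the positions that are not alike in all 5 genes. Serpina1c and Serpina1d differ at 5 of the 60 positions, the fewest of any pair, and Serpina1e differs from each of the others at 10 to 12.
Serpina1a: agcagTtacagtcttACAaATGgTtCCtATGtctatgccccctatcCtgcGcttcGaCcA
Serpina1b: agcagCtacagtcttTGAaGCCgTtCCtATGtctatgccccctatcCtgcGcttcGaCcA
Serpina1c: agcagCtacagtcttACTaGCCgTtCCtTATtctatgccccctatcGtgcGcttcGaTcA
Serpina1d: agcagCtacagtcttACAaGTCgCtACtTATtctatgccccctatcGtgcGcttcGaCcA
Serpina1e: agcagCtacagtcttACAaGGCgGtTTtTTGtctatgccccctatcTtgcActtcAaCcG

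All 5 genes were among the abundant liver transcripts in males. Together they took a median of 1.48% of all counts in male AL liver, 1.73% in male IF liver, 1.18% in female AL liver and 1.24% in female IF liver. Per kilobase of the listed gene length, the male medians of the 5 genes ranked between 24 and 50 among 56748 genes, and those of Serpina1a, Serpina1b, Serpina1c and Serpina1d in females between 23 and 40. Serpina1e ranked 946 in female AL and 1133 in female IF liver on the same scale.

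In CPM per kilobase, the order of median levels in male AL liver (n = 8) was Serpina1c (2272), Serpina1e (2176), Serpina1b (1762), Serpina1a (1447) and Serpina1d (1106). In male IF liver (n = 8) it was Serpina1c (2429.6), Serpina1b (2176), Serpina1d (1904), Serpina1e (1811) and Serpina1a (1639), again in CPM per kilobase. The ranges of neighbours in these orders overlapped in each case. These orders depend on the listed gene length, which is 2415 bases for Serpina1b and 1361 for Serpina1c. The reference transcripts of these genes hold 1585 and 1393 bases. In plain CPM Serpina1b had the highest male AL median (4255), followed by Serpina1e (3518) and Serpina1c (3092). In female AL liver (n = 8) the order in CPM per kilobase was Serpina1b (2014), Serpina1a (1543), Serpina1d (1351), Serpina1c (1342) and Serpina1e (47.9), and in female IF liver (n = 8) Serpina1b (2140.3), Serpina1a (1613), Serpina1d (1489.9), Serpina1c (1410.5) and Serpina1e (38.3). The ranges of neighbours overlapped there too, except that every female library had less Serpina1e than Serpina1c, with a highest Serpina1e of 90.5 against a lowest Serpina1c of 1284 CPM per kilobase in AL and 403 against 1169 in IF.

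**Figure D2:**
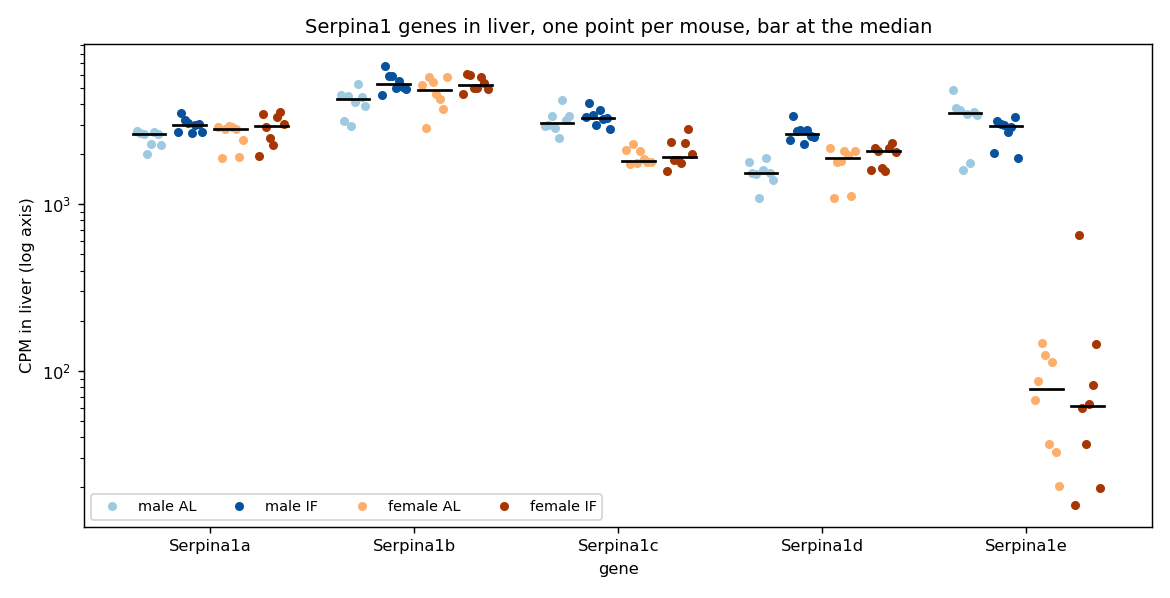
CPM of the 5 Serpina1 genes in liver on a log axis, 1 point per mouse (n = 8 per group), with a bar at the median and colours for sex and diet. Serpina1d lies higher in every male IF library than in any male AL library, and Serpina1e lies lower in every female library than in any male library.

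The first comparison asks how daily fasting altered these transcripts in male liver. Serpina1d rose in IF mice and was the single member that passed the test. Its CPM lay between 1084 and 1905 in AL mice (median 1542, n = 8) and between 2298 and 3367 in IF mice (median 2655, n = 8). Every IF mouse thus had more Serpina1d than any AL mouse, with AL mouse 4 lowest and IF mouse 10 highest of their groups. The share of all genes that separate the diets in this way is not given here, so the separation is not read as particular to Serpina1d. The log2 fold change was 0.71 (SE 0.13), with an adjusted p of 9.42e-05 by edgeR's quasi-likelihood test on TMM-scaled counts, with Benjamini-Hochberg adjustment over 16204 genes. Of these genes 44.6% passed at an adjusted p under 0.05, 23.5% higher and 21.1% lower in IF mice, so 1 call among 5 members is no more than the share over all genes. The balance of directions depends on the scaling, with 3815 genes higher and 3419 lower under TMM, 4401 and 2696 with library totals alone, and 3593 and 3624 with RLE factors.

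The other members had ranges that overlapped between the diets. Serpina1b, the member with the highest CPM, had between 2966 and 5280.2 CPM in male AL (median 4255) and between 4501 and 6756 in male IF liver (median 5256). Serpina1a had between 2006 and 2732 CPM in AL (median 2652) and between 2692.5 and 3519.8 in IF mice (median 3002). For Serpina1a 5 of 8 and for Serpina1b 4 of 8 IF mice lay above every AL mouse. The log2 fold change was 0.31 (SE 0.14, adjusted p = 0.0818, edgeR) for Serpina1b and 0.17 (SE 0.12, adjusted p = 0.236, edgeR) for Serpina1a.

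Whether these genes pass depends on the scaling. With library totals alone, Serpina1b had a log2 fold change of 0.41 (adjusted p = 0.00592, edgeR) and Serpina1a one of 0.26 (adjusted p = 0.0225, edgeR), and both passed. The median log2 fold change of all genes was 0.15 under that scaling and 0.06 under TMM. Serpina1b also passed without AL mouse 6 (replicate 6), with 0.39 and an adjusted p of 0.0261 by edgeR. Other choices lowered these values. Without AL mouse 2 and IF mouse 10 the log2 fold changes were 0.17 for Serpina1b and 0.10 for Serpina1a, and Serpina1a alone had 0.11 without IF mouse 10 and 0.10 without IF mouse 11.

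The study singled out Serpina1c as a protein, and in its results reported more of it in liver and less in muscle and cortex with IF. It also reported less Serpin A1b and Serpin A1e protein in muscle and cortex. The values here are of RNA, and proteins were not measured. Serpina1c had between 2494 and 4232 CPM in male AL (median 3092) and between 2813 and 4073 in male IF liver (median 3307). Its IF values lay within the AL range. The log2 fold change was -0.03 (SE 0.13, adjusted p = 0.869, edgeR), and its sign turned with library totals alone (0.07), without AL mouse 6 (0.06) and without IF mouse 16 (0.00), while it was -0.13 without AL mouse 2 and IF mouse 10. Serpina1e had between 1604 and 4849.7 CPM in AL (median 3518) and between 1906 and 3353 in IF mice (median 2929). AL mice 4 and 6, with 1604 and 1762 CPM, lay well under the other AL mice, which had at least 3416. The log2 fold change of Serpina1e was -0.32 (SE 0.19, adjusted p = 0.170, edgeR), and without AL mouse 4 it was -0.42 and passed (adjusted p = 0.0464, edgeR).

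In males the makeup of the family differed between the diet groups, which is described here without a test. Serpina1d took a median of 10.4% of the family's counts in AL mice (lowest 9.72%) and between 14.1% and 17.0% in IF mice (median 15.9%), again without overlap. The median share of Serpina1e was 23.7% in AL and 16.5% in IF mice, with ranges of 11.1% to 28.8% and 12.8% to 19.4%. For Serpina1b the medians were 28.3% and 31.9%, for Serpina1c 21.3% and 19.0%, and for Serpina1a 17.0% and 17.5%. The ranges of these 4 shares overlapped between the diets. The summed CPM of the 5 genes lay between 10539.8 and 16832 in AL (median 14824) and between 14859.8 and 20869 in IF mice (median 17302), with 5 of 8 IF mice above every AL mouse.

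**Figure D3:**
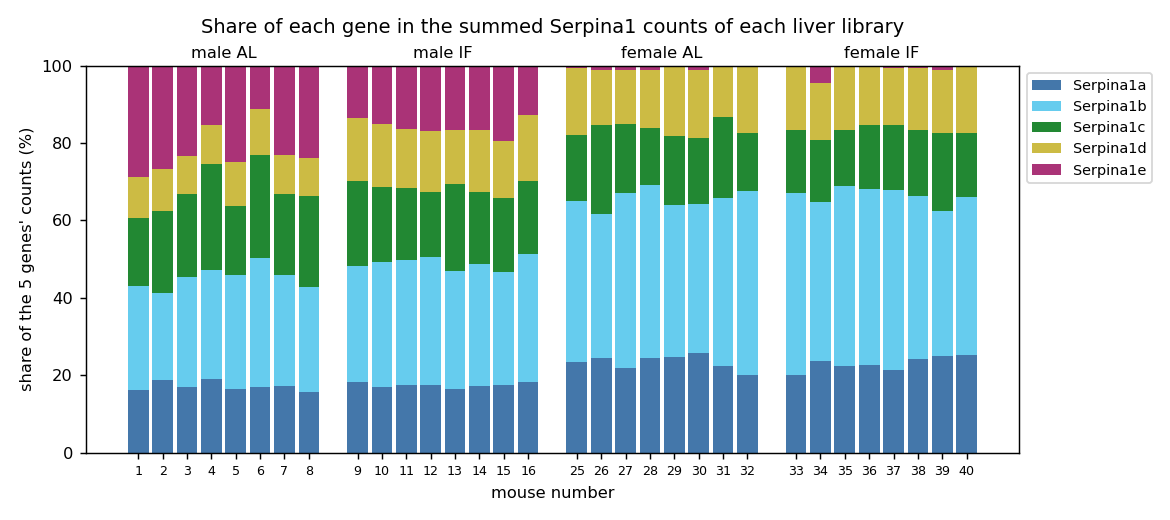
Share of each Serpina1 gene in the summed counts of the 5 genes (%, vertical axis), with 1 stacked bar per liver library and the mouse number on the horizontal axis. The Serpina1d share is larger in each of the 8 male IF mice than in any male AL mouse, and Serpina1e takes at most 4.44% in a female library.

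In these bulk libraries fewer cells of a type and less RNA per cell cannot be told apart. Blood and fat markers moved between the male liver groups. The summed CPM of 5 erythrocyte genes, led by Hba-a1 and none of them at 0, had a median of 569 in AL (362 to 956) and 2070.4 in IF mice (667 to 6879), with 3 of 5 genes higher and none lower by the test. The 4 adipocyte genes, led by Cfd, summed to a median of 22.2 CPM in AL and 0.996 CPM in IF mice, where 1 of the 4 genes had 0 counts in all libraries, and the single gene of them that was tested fell. Of 14 hepatocyte markers 2 rose, 3 fell and 9 did not pass, and their summed medians were 81396 CPM in AL and 85922 CPM in IF mice. Of 5 macrophage and Kupffer cell genes, led by Clec4f, 1 rose, and neither of the 2 tested genes among 6 neutrophil genes passed. The part of blood and fat RNA in the Serpina1 values was not tested.

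Female livers were compared in the same way, and no Serpina1 gene passed. Serpina1d had between 1097 and 2162 CPM in female AL (median 1883) and between 1577 and 2339 in female IF liver (median 2077). Serpina1a had medians of 2826 and 2954 CPM, Serpina1b of 4863 and 5169, and Serpina1c of 1826 and 1919.7, AL before IF. The AL and IF ranges overlapped for each of these 4 genes. Their log2 fold changes were 0.19 (SE 0.17) for Serpina1d, 0.19 (SE 0.16) for Serpina1a, 0.21 (SE 0.15) for Serpina1b and 0.14 (SE 0.14) for Serpina1c. Single libraries moved some of these, as Serpina1d had 0.11 and Serpina1b 0.12 without AL mouse 26, Serpina1d had 0.10 without AL mouse 31, and Serpina1c had 0.05 without IF mouse 39.

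Serpina1e lay at a far lower level in females and varied widely among them. It had between 20.3 and 146 CPM in female AL liver (median 77.4) and between 15.7 and 652 CPM in female IF liver (median 62.0). The highest value was that of IF mouse 34, and the next IF mouse had 146 CPM. The log2 fold change was 0.77 (SE 0.72) with all mice and -0.34 (SE 0.52) without mouse 34. Across all genes 0 of 15938 (0%) were called by edgeR's quasi-likelihood test in female liver, 919 had an unadjusted p under 0.05, and DESeq2 called 8. No member had an unadjusted p under 0.05, and DESeq2 called 0 of 5 members.

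Whether the diet response differed between the sexes was tested with a sex-by-diet term fitted to all 32 liver libraries. The test called 4186 of 17658 genes (23.7%) and 0 of 5 members. At an unadjusted p under 0.05 there were 6102 genes and 1 member, and no other tool was run on this term. That member was Serpina1d, whose response was lower in females by a log2 difference of -0.49 (SE 0.22, adjusted p = 0.0992, edgeR). The rise of Serpina1d in male liver is therefore not shown to differ from its response in female liver. For Serpina1e the difference was 1.11 (SE 0.75, adjusted p = 0.310, edgeR) with mouse 34 and 0.01 without it.

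The fed mice of the sexes differed in the level of 2 members. Serpina1e, at 1604 to 4849.7 CPM in male and 20.3 to 146 CPM in female AL liver, was lower in females by a log2 difference of -5.51 (SE 0.64, adjusted p = 1.52e-07, edgeR). Serpina1c, at 2494 to 4232 CPM in male and 1748 to 2305 CPM in female AL liver, was lower by a log2 difference of -0.88 (SE 0.14, adjusted p = 5.48e-06, edgeR). In both genes every female AL mouse lay under every male AL mouse. How large a share of all genes shows no overlap between the sexes is not given here. Of 17658 genes 20.0% passed in this comparison, 9.59% lower and 10.4% higher in females. The balance of directions turned with RLE factors, from 1835 genes higher and 1694 lower under TMM to 1639 higher and 1821 lower, and to 1565 and 1971 without the filter on low counts. The differences of Serpina1a (-0.10, SE 0.14), Serpina1b (0.05, SE 0.15) and Serpina1d (0.04, SE 0.15) did not pass.

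In females Serpina1b had the largest share of the family. Serpina1e took a median of 0.784% of the family's counts in female AL and 0.533% in female IF liver, and Serpina1b took 42.5% and 43.7%. The median shares of Serpina1a were 23.9% and 23.2%, those of Serpina1c 17.5% and 16.7%, and those of Serpina1d 16.2% and 16.1%. The summed CPM of the family had medians of 11848.5 in female AL (7663 to 12883) and 12438 in female IF liver (9730.4 to 14677.5), and every female IF mouse lay under every male IF mouse. Among AL mice the sums of the sexes overlapped, with 2 of 8 females under every male.

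Muscle and cortex held only traces of these transcripts. The lowest liver library had 7663 CPM of the 5 genes together, whereas the highest muscle library had 3.39 CPM (123 counts) and the highest cortex library 0.771 CPM (28 counts). Of 32 muscle libraries 11 had at most 3 counts of the family and 7 had 0, and of 31 cortex libraries 22 had at most 3 counts and 11 had 0. A count of 3 is taken here as the limit that a count of 0 allows, which covers counting error only. None of the 5 genes passed edgeR's filter on low counts within muscle or cortex, so edgeR made no diet test of them there. DESeq2, which was run without that filter, gave a value for 1 member in male muscle and did not call it. With counts this low no fold change is given.

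In muscle the summed counts of the family ranged from 0 to 26 in male AL (median 12.5), from 0 to 50 in male IF (median 6), from 0 to 32 in female AL (median 12.5) and from 0 to 123 in female IF mice (median 3.5). The groups overlapped, and the high values in female IF muscle were those of mice 39 and 40, with 123 and 73 counts. Of the 123 counts of mouse 39, 72 were on Serpina1e and 37 on Serpina1b. The liver of that mouse had 146 CPM of Serpina1e.

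In cortex the summed counts ranged from 0 to 8 in male AL (median 3, n = 7), from 0 to 4 in male IF (median 0), from 0 to 3 in female AL (median 0.5) and from 0 to 28 in female IF mice (median 6). Female IF mouse 36 was the high one, with 15 counts on Serpina1d and 9 on Serpina1e, and the next cortex library of its group had 9 counts in all. Serpina1c had 2 counts in male AL cortex and 0 in the other 3 groups, which allows up to 0.0111 CPM over the male IF libraries pooled, 0.0108 over the female AL and 0.0102 over the female IF libraries.

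**Figure D4:**
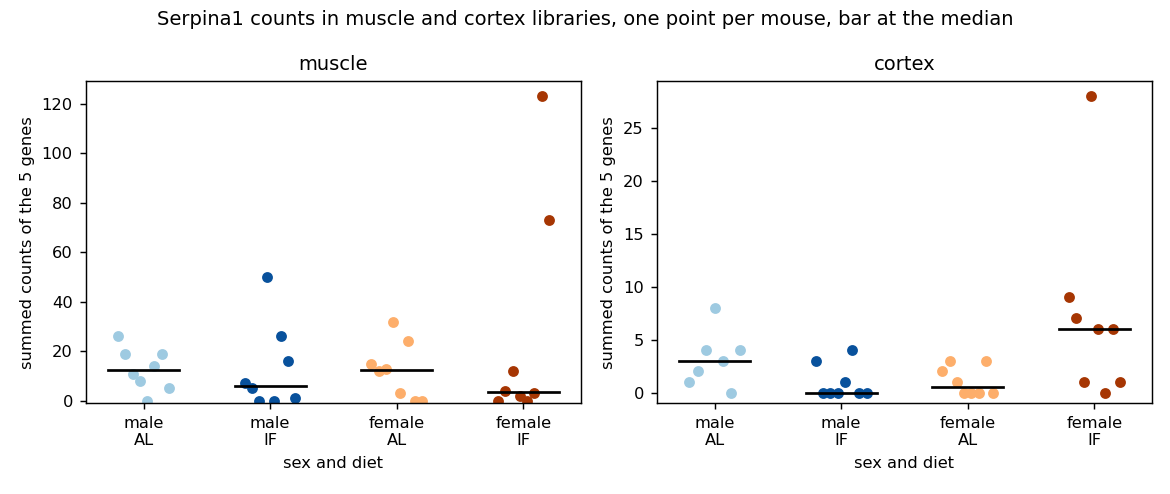
Summed counts of the 5 Serpina1 genes per library in muscle (left) and cortex (right), by sex and diet, 1 point per mouse and a bar at the median. The vertical axes differ, with a highest value of 123 counts in muscle and 28 in cortex.

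Hepatocyte markers in these tissues were low as well. In muscle their summed median was 5.70 CPM in male AL and 87.0 CPM in male IF mice (36.1 to 212), of which Cyp2e1 alone had a mean of 95.4 CPM in IF mice. Without Cyp2e1 the other 13 markers summed to medians of 0.981 and 2.35 CPM. The 4 adipocyte genes, led by Cfd, had summed medians of 77.8 CPM in male AL and 629 CPM in male IF muscle, while the median of the Serpina1 sum was 0.329 CPM in AL and 0.178 CPM in IF mice. In cortex the hepatocyte markers, led by Apoa2, summed to medians between 3.88 and 5.20 CPM, and choroid plexus genes, led by Ttr, reached 4338 CPM in a female IF library. The part of these other cells in the trace counts was not tested.

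Whether tissues differed in the diet response was tested within mice, against liver. In males 5524 of 18222 genes (30.3%) were called for muscle and 4739 of 20730 (22.9%) for cortex. In females 0 of 18311 genes (0%) were called by edgeR for muscle, with 835 at an unadjusted p under 0.05, and 0 of 20506 (0%) for cortex, with 1634 at an unadjusted p under 0.05. The 5 Serpina1 genes entered these 4 comparisons through their liver counts, as none passed the filter within muscle or cortex. None was called, which does not decide whether their response differed between tissues. No other tool was run on these comparisons. For the same reason the unadjusted p-values of the members in these comparisons are not read as a result. The muscle and cortex side of these comparisons rests on the few counts given above.

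Genes that act with antitrypsin were read from lists, whose counts stand beside 23.5% of all tested genes higher and 21.1% lower in male IF liver. Of 19 other clade A serpins, most of which lie on chromosome 12 near the Serpina1 genes, 12 were tested in male liver, and 6 rose, 2 fell and 4 did not pass, with a median log2 fold change of 0.36 beside 0.06 for all genes. Serpina12, which encodes the adipokine vaspin, fell by 1.80 on the log2 scale. Serpina3m, Serpina3g and Serpina3f, of the antichymotrypsin group, rose with log2 fold changes of 1.60, 1.16 and 1.02. The annotated span of Serpina3m encloses Serpina3k, so the counts of these are uncertain. Of the 7 other hepatocyte serpins 1 rose, 3 fell and 3 did not pass (median 0.04). Serpine2 (protease nexin 1) rose with 1.41, and Serpinf2 (alpha-2-antiplasmin), Serpind1 (heparin cofactor II) and Serping1 (C1 inhibitor) fell, with log2 fold changes of -1.02, -0.36 and -0.26.

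The proteases that antitrypsin inhibits were near absent, as Elane, Prtn3 and Ctsg summed to a median of 1.66 CPM in male AL and 0.487 CPM in male IF liver. Only 1 of the 3 was tested, Prtn3, and it fell by 1.69 on the log2 scale. Of 9 genes for folding, export, degradation and uptake of antitrypsin, 2 rose, 5 fell and 2 did not pass in male liver (median -0.34). Calr (calreticulin) was the gene of these that fell furthest. Lman1, the cargo receptor that carries antitrypsin out of the endoplasmic reticulum, had a log2 fold change of -1.23 and the chaperone Hspa5 one of -0.79, whereas the chaperone Canx (calnexin) rose with 0.78.

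Of 13 hepatocyte transcription factors and interleukin-6 signalling genes 4 rose, 1 fell and 8 did not pass (median 0.14). Il6ra, the interleukin-6 receptor, rose with 1.66, the transcription factors Cebpb and Foxa3 rose with 1.56 and 1.05, and Foxa1 fell by 0.57 on the log2 scale. Of 14 acute phase genes, which like antitrypsin in humans respond to inflammation, 7 rose, 1 fell and 6 did not pass (median 0.51). Saa2, Orm2, Saa1 and Saa3 had log2 fold changes of 1.97, 1.86, 1.57 and 1.23. In female liver 0 of the tested genes of these 6 lists passed edgeR's test, which called 0 genes there.

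Between fed females and males, 4 of the 12 tested clade A serpins were higher and 2 lower in females (median 0.24 beside 0.04 for all genes), where 10.4% of all genes were higher and 9.59% lower. Serpina6, which encodes corticosteroid-binding globulin, was higher by 2.17, Serpina3m was higher by 1.08, and Serpina12 and Serpina3k had differences of -1.93 and -1.02. Of the other hepatocyte serpins 1 of 7 was higher and 1 lower, Serpine2 with -2.23. Of the acute phase genes 8 of 14 were higher and 0 lower, among them Lcn2 (2.67), Orm3 (2.57), Saa2 (2.31) and Saa3 (1.30). Of the folding and export genes 4 of 9 were lower, namely Hspa5 (-1.08), the folding sensor Uggt1 (-0.65), Calr (-0.48) and Lman1 (-0.35). Of the hepatocyte factors and interleukin-6 genes 3 of 13 were higher, namely Il6ra (1.01), Cebpb (0.66) and Cebpa (0.54). The 1 tested protease gene did not pass.

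How the members varied together was described over the liver libraries as Pearson's r of log2(CPM + 1). Because males and females form separate groups, r is given within 16 males and 16 females, and each group holds both diets and shares tissue and library depth. Serpina1a and Serpina1d had r = 0.891 in males and 0.872 in females, Serpina1b and Serpina1d 0.885 and 0.797, and Serpina1a and Serpina1b 0.858 and 0.701. Serpina1c had r between 0.354 and 0.513 with these 3 genes in males and between 0.431 and 0.791 in females. Serpina1e had r between -0.166 and 0.247 with the other members in males and between 0.220 and 0.572 in females. Serpina1c and Serpina1e, the members that were lower in females, had r = -0.166 in males and 0.572 in females.

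Among 13423 genes with a mean of at least 1 CPM in liver, those most like each member over the 32 libraries were named by the same measure. For Serpina1d these were Atp5g3, Cox4i1 and Ndufb11, with r between 0.953 and 0.959 over all libraries. Within males r was between 0.959 and 0.966 and within females between 0.931 and 0.959 for these 3 genes. For Serpina1a they were Wdr83os, Fam162a and Rps26, with r between 0.892 and 0.925 in males and between 0.908 and 0.920 in females. For Serpina1b they were Fdx1, Ndufb10 and Mrpl51, with r between 0.851 and 0.907 in males and between 0.726 and 0.817 in females. Spearman's rank correlation of these 3 genes with Serpina1b lay between 0.868 and 0.921 in males and between 0.347 and 0.621 in females.

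The genes most like Serpina1e and Serpina1c were so mainly across the sexes. For Serpina1e they were Mup20, C8a and Susd4, with r of 0.953, 0.948 and 0.944 over 32 libraries, but 0.345, 0.623 and 0.0562 within males and 0.502, 0.442 and 0.436 within females. For Serpina1c they were Gstp-ps, Ociad2 and Slco1a1, with r between 0.0835 and 0.414 within males and between 0.479 and 0.528 within females. The summed CPM of the 5 genes was most like Nme1, Dmac1, Gm10221, Sec61b and Ndufc1, with r between 0.702 and 0.856 within males and between 0.823 and 0.921 within females.

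Promoters are shown because the members differ in their levels while their promoter sequences are nearly alike. All 5 genes had an entry in the RefSeq promoter table (GRCm38.p6, 300 bases per gene), and each window of 155 bases printed here matched GRCm39 exactly once on the minus strand of chromosome 12. The windows lie at chr12:103829835-103829989 for Serpina1a, chr12:103704410-103704564 for Serpina1b, chr12:103871172-103871326 for Serpina1c, chr12:103739844-103739998 for Serpina1d and chr12:103923170-103923324 for Serpina1e, and 17 of the 155 positions vary, which are in capitals. The windows of Serpina1b and Serpina1e lie inside the annotated spans of these genes, that of Serpina1d overlaps the end of its span, and those of Serpina1a and Serpina1c lie upstream. Identity of pairs lies between 92.9% (Serpina1c with Serpina1d) and 98.1% (Serpina1b with Serpina1e).
Serpina1a: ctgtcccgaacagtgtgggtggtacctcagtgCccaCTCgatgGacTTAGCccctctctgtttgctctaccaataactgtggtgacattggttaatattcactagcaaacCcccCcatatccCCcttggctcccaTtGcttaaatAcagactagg
Serpina1b: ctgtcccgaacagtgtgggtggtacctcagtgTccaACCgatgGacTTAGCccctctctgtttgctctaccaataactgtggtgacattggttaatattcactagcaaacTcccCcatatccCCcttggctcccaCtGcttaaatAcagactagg
Serpina1c: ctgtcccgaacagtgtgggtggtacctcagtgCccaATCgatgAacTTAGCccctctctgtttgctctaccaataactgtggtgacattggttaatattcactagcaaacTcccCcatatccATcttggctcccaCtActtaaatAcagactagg
Serpina1d: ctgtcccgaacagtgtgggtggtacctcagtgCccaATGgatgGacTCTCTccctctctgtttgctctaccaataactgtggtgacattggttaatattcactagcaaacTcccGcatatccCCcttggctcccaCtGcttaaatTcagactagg
Serpina1e: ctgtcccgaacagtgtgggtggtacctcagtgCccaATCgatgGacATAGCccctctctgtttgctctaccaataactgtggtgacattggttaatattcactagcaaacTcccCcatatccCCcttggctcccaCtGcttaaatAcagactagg

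Letters searched on both strands of the 300-base promoters were GTTAAT, on which the printed windows are aligned, TGGACTTNG for HNF4, TTCNNNGAA for STAT factors and TATAAA for the TATA box. GTTAAT was found in all 5 genes and in 7.10% of 32851 promoters. TGGACTTNG was found in Serpina1a and Serpina1b and in 1.21% of promoters. TTCNNNGAA and TATAAA were found in none of the 5, against 8.30% and 13.6% of all promoters. A match or its lack describes the letters of these windows only. The 5 promoters are near-identical over the printed windows, so they are not independent cases. Matches in all or none of them are not read as enrichment or depletion.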

How the data were processed

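Per the labels and the study's description, the authors made directional poly-A libraries by the dUTP method, sequenced them as read pairs on a NovaSeq instrument, mapped the reads by Hisat2 on the GRCm39 genome and deposited raw counts per gene from featureCounts. The gene length in the deposited table is in bases and was used for CPM per kilobase. How reads fitting several genes were counted and the strand setting are not stated.

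Of 96 library columns 95 were used, without the library labelled male AL cortex of mouse 1. CPM is the usual scaling of a count by the library's total, and a gene's share is its percent of the counts on the 5 genes. Genes were filtered with edgeR's filterByExpr at its defaults, scaled by TMM and tested with edgeR's quasi-likelihood test (edgeR 4.0.16, limma 3.58.1, R 4.3.3), males and females apart, with Benjamini-Hochberg adjustment over all tested genes and a threshold of 0.05. The terms for sex by diet and for tissue by diet came from joint fits, the latter with mouse as a block. DESeq2 1.42.0 served as an alternative. Tables and figures were made with Python 3.11.15 and matplotlib 3.10.9. Coding sequences and positions came from a mouse annotation on GRCm39, whose release may differ from that of the authors, and promoters from RefSeq. The members and the lists were chosen with earlier results of these data known. From each list at most 4 called genes were named per comparison, those with the largest log2 fold changes.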

Additional observations from a re-analysis of the deposited data

Results flagged for a closer look

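In 4 cases a library lay far from the rest of its group by Dixon's test at n = 8, among 32 groups tested, and chance alone sets some apart at that number of groups. Serpina1d in male IF liver was 3367 CPM in mouse 10, and the next value was 2778. Serpina1e in female IF liver was 652 CPM in mouse 34, with 146 as the next. The sum of the 5 genes was 0.771 CPM (28 counts) in the cortex of female IF mouse 36, with 0.224 as the next, and 10539.8 CPM in the liver of male AL mouse 4, with 13999 as the next. The cause was not tested in any of these.

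The response to diet differed between the sexes for some genes named in the report. These genes were named for the largest called changes in male liver, and the same libraries enter the sex-by-diet test. Differences for them were thus favoured by the choice, and they are not read as a trait of the lists. As female minus male log2 fold changes in liver, these differences were 1.59 for Calr, -0.68 for Canx, -1.29 for Cebpb, 0.73 for Foxa1, -0.72 for Foxa3, 0.94 for Hspa5, -1.14 for Il6ra and 1.40 for Lman1. They were -2.03 for Orm2, -3.02 for Saa2, -1.75 for Saa3, 1.87 for Serpina12, -1.49 for Serpina3m, 0.49 for Serpind1 and 1.22 for Serpinf2. Over all genes 4186 of 17658 (23.7%) passed this test in liver. In males, 5524 genes differed between muscle and liver in their response and 4739 between cortex and liver. No Serpina1 gene was among the 4186 that differed between the sexes. In the tissue comparisons the Serpina1 genes were included through their liver counts, so no conclusion is drawn for them there.

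The library labelled male AL cortex of mouse 1 had 213 CPM of Xist and no counts of the Y-linked genes, against its labelled sex, and it was left out.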

How the results depend on the processing

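Serpina1d kept its rise in male liver under every alternative, with log2 fold changes of 0.61 to 0.80 (adjusted p from 1.61e-06 to 0.000414) and, with each library left out in turn, of 0.63 to 0.77. Serpina1a ranged from 0.10 to 0.26, Serpina1b from 0.17 to 0.41 and Serpina1c from -0.13 to 0.07 under the other alternatives. Leaving out single libraries, female IF mouse 34 included, was chosen after the values were seen. Left-out ranges in male liver were 0.10 to 0.21 for Serpina1a, 0.24 to 0.39 for Serpina1b, -0.10 to 0.06 for Serpina1c and -0.42 to -0.22 for Serpina1e. Serpina1c had 0.0730 with library totals alone, 0.0583 without AL mouse 6 and 0.00258 without IF mouse 16. Serpina1e in female liver ranged from -0.34 to 0.99 and had -0.00536 with the replicate block. The cause of these turns was not tested.

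Counts of called genes moved as follows. Male liver had 6842 to 7218 with a library left out and female liver 0 in each case. In male cortex 1332 genes were called, 2140 by DESeq2, 382 with the replicate block (7 pairs, so IF mouse 9 was left out too), 499 and 379 with 6 AL and 7 IF mice (AL mouse 2 and IF mouse 10 or 9 left out) and 295 with the left-out library kept. Female liver had 8 by DESeq2, female muscle 1, with 83 by DESeq2 and 5 without a filter, and female cortex 2, with 0 on library totals, 60 by DESeq2 and 0 with the block. Sex by diet in cortex had 397 and 220 without a filter, and tissue by diet in females 0 and, without the mouse block, 2 and 2. Male muscle split into 1727 higher and 1738 lower, and on library totals into 2549 and 1073. The cause was not tested.

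The replicate number does not pair mice: the correlations of pairs ran from -0.0409 to 0.105 in male liver, with 1 of 8 over 0.1, and up to 0.457 in female muscle, with 4 of 8 over 0.1, and in no tissue were all pairs over 0.1. At most 2 of 8 AL libraries correlated best with their own number. With the replicate block, male liver had 7090 and male muscle 3140 called genes, female liver 0 and female muscle 1.

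On TMM-scaled CPM the medians of Serpina1a and Serpina1c were 2928 and 3661 in male AL and 3232 and 3526 in male IF liver, so that the order of the diets turned for Serpina1c. Near-identical copies limit what the value of each single gene means, and in muscle and cortex the depth leaves few counts per library. The sexes are confounded with cohort, and the proteins were not measured here.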
